A study of Mus musculus with 24 samples.

Results

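The comparison described here is that of 4 *Tsc1-Cre+* mice taken on day 13, when the study places them in established epilepsy, with 4 *Tsc1-Cre-* control mice. They were chosen by the genotype and time in their labels and make up 8 of the 24 mice of the series. RNA from the hippocampus was sequenced and reads were counted per gene. All mice carried *Tsc1* with both alleles floxed (*Tsc1f/f*) and received tamoxifen for 4 days, and tissue was collected at 16 to 22 weeks of age. The *Tsc1-Cre+* mice also carried the transgene Tg(Camk2a-CreERT2), a tamoxifen-inducible Cre recombinase under the *Camk2a* promoter, so that *Tsc1* is deleted in neurons that express it and not in glia. The controls lacked the transgene, received the same tamoxifen and were taken on day 8, so genotype and the time after induction both separate the groups. A further *Tsc1-Cre+* group was given rapamycin, the mTORC1 inhibitor, at 10 mg/kg from day 4 and was also taken on day 13. *Tsc1-Cre+* mice taken on day 8 are used at the end. No label gave sex, litter or batch, and mice of both sexes were used. The number series in the names of the deposited tables did not overlap between the groups, and day 13 mice A and B shared a series while C and D each had another, so whatever these numbers mark and the groups cannot be told apart.

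TSC1 forms with TSC2 the complex that restrains mTORC1, a kinase complex that promotes protein, nucleotide and lipid synthesis and lysosomal regulation. ATF4, which drives amino acid uptake and synthesis genes, and the SREBP factors, which drive sterol and fatty acid synthesis genes, are known to act downstream of it. In the hippocampus, intense firing induces immediate early transcription factors within minutes, followed by slower genes for growth factors, neuropeptides and synaptic proteins. Seizures are also known for reactive astrocytes, activated microglia and loss of calbindin from dentate granule cells, the input neurons of the hippocampal circuit. The genes were therefore grouped into lists for activity, gliosis, metabolism and granule cell identity, beside lists for other neurons and other cell types.

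Promoter sequences are shown because amino acid response genes and immediate early genes gave some of the largest changes and have well known response elements. RefSeq windows on GRCm38.p6, reaching 250 bases before and 50 bases after each annotated start, were searched on both strands for TGATGNAAN, the C/EBP-ATF response element, and TGACGTCA, the cAMP response element. TGATGNAAN was found in 7 of the 20 amino acid response genes with a window (35%) and in 1215 of 27025 genes in all (4.50%). Among immediate early genes it was found in 2 of 24 (8.33%), *Atf3* and *Gadd45g*. TGACGTCA was found in 3 of 24 immediate early genes (12.5%) and in 549 of all genes (2.03%). The stretches below run 5′ to 3′ on the strand named, and capitals mark the match or its reverse complement.
Asns, chr6:7693204-7693252, minus strand: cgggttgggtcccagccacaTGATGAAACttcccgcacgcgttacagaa
Chac1, chr2:119351028-119351076, plus strand: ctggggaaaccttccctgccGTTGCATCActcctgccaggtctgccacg
Nupr1, chr7:126625553-126625601, minus strand: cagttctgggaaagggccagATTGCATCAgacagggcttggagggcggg
Slc1a4, chr11:20332690-20332738, minus strand: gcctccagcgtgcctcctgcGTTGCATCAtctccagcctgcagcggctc
Vldlr, chr19:27216799-27216847, plus strand: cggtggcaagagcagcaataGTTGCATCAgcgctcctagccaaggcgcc
Slc7a11, chr3:50443633-50443699, minus strand: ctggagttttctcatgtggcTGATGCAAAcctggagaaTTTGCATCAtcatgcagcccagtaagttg
Atf3, chr1:191183416-191183464, minus strand: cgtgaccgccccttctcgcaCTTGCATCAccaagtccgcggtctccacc
Maff, chr15:79347471-79347518, plus strand: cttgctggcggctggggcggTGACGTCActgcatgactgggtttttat
The windows of *Trib3*, *Btg2*, *Dusp1* and *Gadd45g* also held a match to one of the motifs. A match describes letters in the window, not binding. *Slc7a11*, the cystine transporter, held a pair of matches and had a log2 fold change of 0.04 on day 13 (edgeR adjusted p = 0.895), whereas *Asns*, with a single match, had one of 2.14 (edgeR adjusted p = 1.22e-04).

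Total gene counts were 50460565 to 61083014 in the controls and 69971957, 126435936, 38423852 and 41101425 in day 13 mice A to D. Values below are CPM (counts scaled to a common library total, with TMM factors over the 8 mice), given in the order A to D. *Tsc1* was 108, 101, 104 and 102 CPM in the controls and 56, 56.2, 67.8 and 67.9 CPM on day 13, a fall without overlap (log2 fold change -0.75 ± 0.08 (SE), edgeR adjusted p = 6.36e-04). *Xist*, which is expressed in female cells, read 3.09, 1042, 627 and 1057 CPM in the controls and 1.95, 1.45, 797 and 804 CPM on day 13. Day 13 mice A and B were thus low in *Xist*, were the deepest libraries and shared a number series, so the parts of these in the results cannot be told apart. Fits with *Xist* as a covariate and on counts thinned to the smallest library are given below. The summed choroid plexus markers stood at 1747 CPM in control B and 67.2 to 87.1 CPM in the other controls. The thalamic marker *Prkcd* read 86.2 CPM in control D against 26.8 to 29.7 CPM in the other controls. Among protein-coding genes the median log2 fold change was 0.08, and it was -0.25 among lincRNAs and -0.26 among antisense genes.

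A gene was called changed where the edgeR adjusted p was under 0.05 and the log2 fold change over 0.5 in size. By this rule 8.4% of the 24920 genes tested were higher, 8.06% lower and 16.5% changed in either direction, and the median over all genes was -0.04. The lists are read against these shares. Among protein-coding genes alone 11.6% were higher and 4.92% lower, with a median of 0.08. Beside that class rises in the lists stand out less and falls more. The mice of the groups did not overlap for 30.9% of all genes, with day 13 above the controls for 16.4% and below for 14.5%. Immediate early, delayed activity, amino acid response, sterol and pan-reactive astrocyte genes were mostly higher. Dentate granule cell genes were more often lower than higher. Of 29 immediate early genes 17 were higher and the others not called (median log2 fold change 1.44), of 23 amino acid response genes 21 were higher (median 1.68), and of 12 pan-reactive astrocyte genes 10 were higher (median 2.03). Among 22 dentate granule cell genes 1 was higher and 7 were lower (median -0.56). In bulk RNA, fewer cells of a type and less RNA per cell cannot be told apart.

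**Figure D1:**
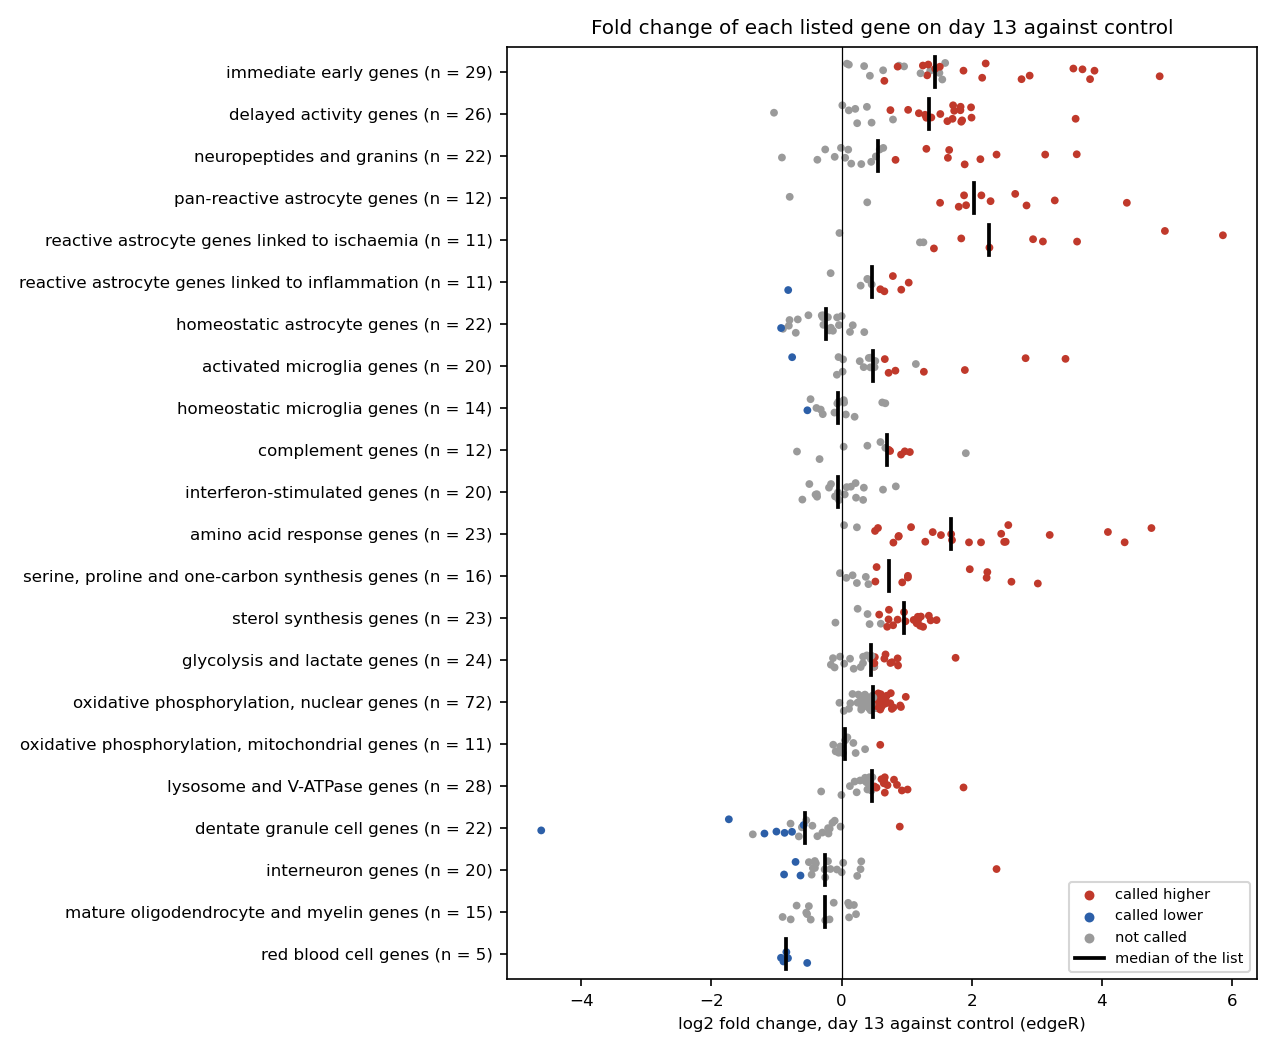
Log2 fold change of day 13 against control (horizontal axis) for each tested gene of a chosen part of the lists (rows). Red points were called higher, blue points called lower and grey points not called, and a bar marks the list median. Immediate early, amino acid response, sterol and pan-reactive astrocyte genes lie mostly to the right of 0, nuclear oxidative phosphorylation genes lie in a narrow band just right of it, and dentate granule cell genes lie mostly to the left.

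Immediate early genes lay mostly above the controls in day 13 mice A, B and C and not in D. 17 of 29 immediate early genes were called higher and the others not called. Of the 29, 28, 22, 29 and 10 lay above the highest control in day 13 mice A to D, and 0, 4, 0 and 15 lay below the lowest. Of all genes tested, 35.2%, 35.6%, 33.1% and 33.1% lay above the highest control in these mice and 38.1%, 40.5%, 34.8% and 34.5% below the lowest, so the share of the list above the controls in D, 34.5%, was near that of all genes. *Fos* (ENSMUSG00000021250, chr12:85473890-85477273, plus strand) codes for an AP-1 transcription factor induced by firing. *Fos* was 3.22, 6.71, 6.08 and 4.09 CPM in the controls and 99.2, 49.4, 148 and 1.75 CPM on day 13 (log2 fold change 3.89 ± 0.93 (SE), edgeR adjusted p = 0.0145). Mice A, B and C thus stood far above every control while D was below all of them. *Junb* codes for a partner of FOS. *Junb* was 16.4, 24.9, 26.4 and 24.5 CPM in the controls and 112, 104, 177 and 20.6 CPM on day 13 (log2 fold change 2.16 ± 0.50 (SE), edgeR adjusted p = 0.0124). *Homer1*, a postsynaptic scaffold gene, followed the same order: 206, 202, 209.8 and 183 CPM in the controls and 625, 583, 625 and 158 CPM on day 13 (log2 fold change 1.32 ± 0.35 (SE), edgeR adjusted p = 0.0216). *Atf3*, an AP-1 family member also known as a stress gene, was the largest called rise of the list. *Atf3* was 0.327, 0.791, 0.666 and 0.795 CPM in the controls and 42, 18.6, 13.7 and 2.33 CPM on day 13 (log2 fold change 4.89 ± 0.76 (SE), edgeR adjusted p = 0.00241). Here all day 13 mice exceeded all controls, D by the least. *Egr2*, *Fosb* and *Maff*, further transcription factor genes, had log2 fold changes of 3.70, 2.89 and 3.82, and the growth arrest genes *Gadd45b* and *Gadd45g* of 2.77 and 2.22. *Arc*, which codes for a synaptic capsid-like protein, did not pass the test (1.36, edgeR adjusted p = 0.073), with 333, 193, 525 and 56.8 CPM on day 13 against 90.6 to 125 CPM in the controls. The same held for *Egr1* (0.96, adjusted p = 0.141) and *Npas4* (1.55, adjusted p = 0.157), of which *Npas4* reached 66.2 CPM in mouse C. The number called higher was 26 without day 13 mouse D. *Arc* (1.70, adjusted p = 0.00336), *Egr1* (1.28, adjusted p = 0.00606), *Btg2* (1.91, adjusted p = 0.0449) and *Dusp1* (1.08, adjusted p = 0.0286) passed the test without day 13 mouse D. *Dusp1* (1.08, adjusted p = 0.0411) passed the test without day 13 mouse B. With day 13 mice A and B left out the list gave 16 calls, and 7 in the mice with high *Xist* alone. The call for *Fos* was lost when control D was left out, where its adjusted p rose to 0.0503. The call for *Homer1* was lost when any of the 4 controls or day 13 mouse A was left out, where its adjusted p rose to 0.0646. The call for *Fosb* was lost when control A or C or D was left out, where its adjusted p rose to 0.0663.

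Delayed activity genes lay mostly above the controls in each day 13 mouse, D included. 18 of 26 were called higher and the others not called (median log2 fold change 1.34), and 24, 22, 23 and 16 of the 26 lay above the highest control in mice A to D, against 33.1% to 35.6% of all genes. *Nptx2* codes for a secreted pentraxin that clusters AMPA receptors. *Nptx2* was 15.8, 18.5, 15.4 and 16.1 CPM in the controls and 222, 387, 138 and 49 CPM on day 13 (log2 fold change 3.60 ± 0.52 (SE), edgeR adjusted p = 0.00168). *Bdnf* codes for the neurotrophin BDNF, and 40.8, 38.5, 41.7 and 39.5 CPM in the controls became 150.3, 213, 134 and 72.4 CPM on day 13 (log2 fold change 1.83 ± 0.26 (SE), edgeR adjusted p = 0.00157). Its mean was 40.1 ± 1.45 CPM (SD, n = 4) in the controls and 143 ± 57.7 CPM (SD, n = 4) on day 13. For both genes B was highest, D was lowest, and no day 13 mouse overlapped a control. *Rgs4* and *Rgs2*, regulators of G protein signaling, had log2 fold changes of 1.99 and 1.83 (adjusted p = 6.83e-04 and 0.0023). The constitutively active receptor *Gpr3* had one of 2.00, the cyclooxygenase *Ptgs2* one of 1.84 and the activin subunit *Inhba* one of 1.85 (adjusted p = 0.00278, 0.00795 and 0.00727). *Ptgs2* read 29.2 CPM in mouse D, inside the control range of 22.7 to 30.1 CPM. *Bdnf* overlaps the gene model *Gm45346* on the other strand, and the strand setting of the counting is not given in the sources used here.

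Neuropeptide and granin genes split into a group that rose and a larger one that was not called, with 9 of 22 higher and the others not called (median 0.56). *Npy* codes for neuropeptide Y, which dentate neurons are known to express after seizures. *Npy* was 12, 10.6, 11.3 and 9.58 CPM in the controls and 79.7, 96, 25.6 and 24.9 CPM on day 13 (log2 fold change 2.38 ± 0.43 (SE), edgeR adjusted p = 0.00433). *Penk*, the enkephalin precursor, read 17.2, 12.7, 12.2 and 13.7 CPM and 64, 105, 28.8 and 46.6 CPM (log2 fold change 2.13 ± 0.34 (SE), edgeR adjusted p = 0.00251). It overlaps *A830012C17Rik* on the other strand. For both genes mouse B was highest and no day 13 value fell among the controls. The granin genes, whose products sort into dense-core vesicles, were also higher: *Scg2* (1.89, adjusted p = 0.0011), *Vgf* (1.65, adjusted p = 0.0059), *Chga* (1.63, adjusted p = 0.00387) and *Chgb* (0.83, adjusted p = 0.00397). *Scg2* read 614, 779, 381 and 326 CPM on day 13 against 138 to 144 CPM. *Sst* and *Cck*, peptides of interneurons, had log2 fold changes of -0.25 and 0.10 and were not called. *Pdyn*, the dynorphin precursor, read 20.6, 5.27, 5.89 and 5.45 CPM on day 13 against 8.35 to 11.1 CPM, so mouse A lay above and the other day 13 mice below all controls. *Pdyn* (-0.85, adjusted p = 0.00392) passed the test without day 13 mouse A.

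**Figure D2:**
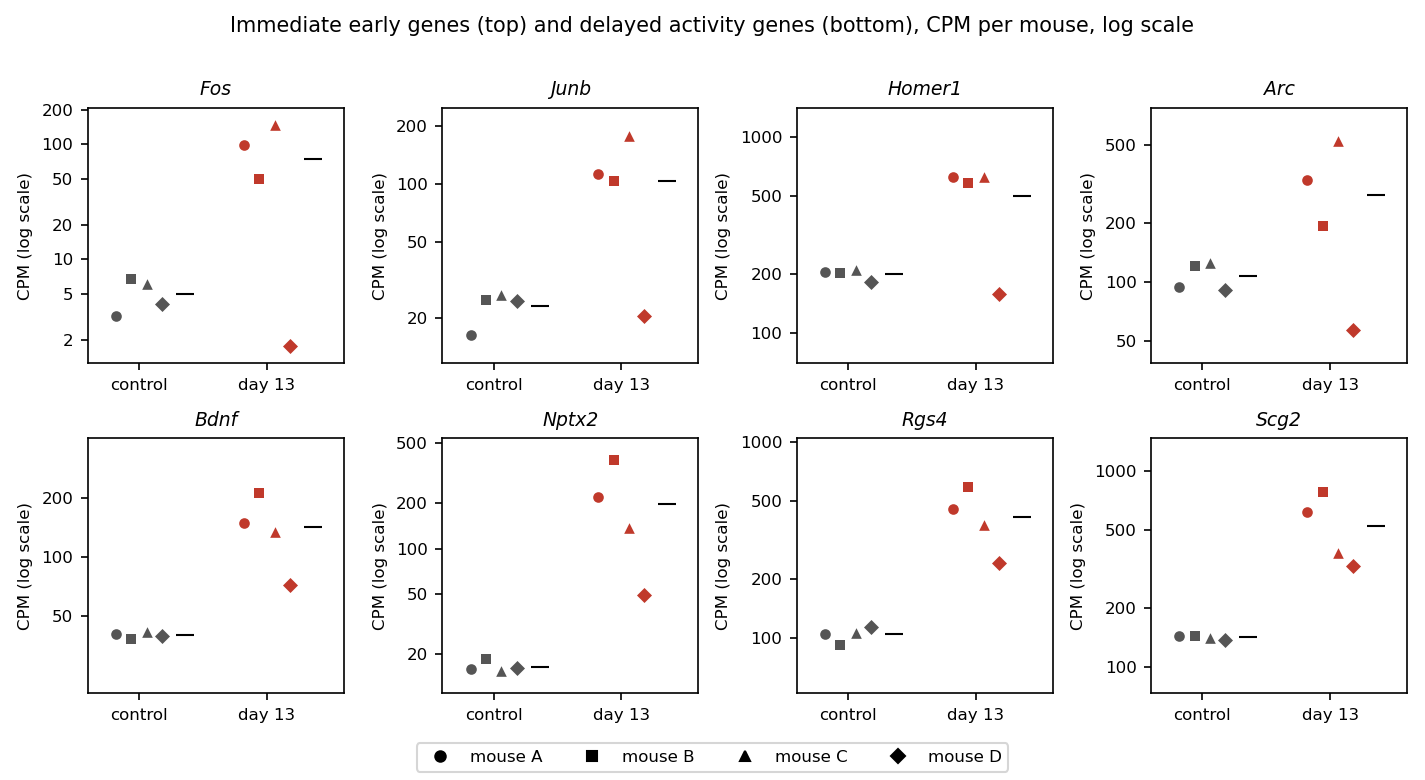
CPM on a log axis for *Fos*, *Junb*, *Homer1*, *Arc*, *Bdnf*, *Nptx2*, *Rgs4* and *Scg2* in control and day 13 mice, with a point per mouse and a dash at the group mean. For the first row of genes day 13 mouse D lies among or below the controls while A, B and C lie above them, and for *Bdnf*, *Nptx2*, *Rgs4* and *Scg2* all day 13 mice lie above all controls.

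Reactive astrocyte genes rose, most of them much more in day 13 mice A and B than in C and D, where some did not rise. 10 of 12 pan-reactive astrocyte genes were called higher and the others not called (median 2.03), and the median log2 ratio to the control mean was 2.34, 2.79, 0.28 and 0.42 in mice A to D. *Gfap* (ENSMUSG00000020932, chr11:102887336-102900912, minus strand) codes for the intermediate filament protein of astrocytes. *Gfap* was 160.4, 206, 184 and 198 CPM in the controls and 732, 1292, 366 and 431 CPM on day 13 (log2 fold change 1.91 ± 0.35 (SE), edgeR adjusted p = 0.00466). All day 13 mice exceeded all controls, B the most. *Serpina3n* codes for a secreted serine protease inhibitor. *Serpina3n* was 26.3, 25.5, 19.6 and 23 CPM in the controls and 186, 370.2, 57.5 and 62.3 CPM on day 13 (log2 fold change 2.84 ± 0.55 (SE), edgeR adjusted p = 0.00601), again without overlap. *Cd44*, the hyaluronan receptor, separated the day 13 mice further, with 115, 144, 5.53 and 5.25 CPM against 2.09, 3.44, 4.63 and 2.74 CPM in the controls (log2 fold change 4.39 ± 1.05 (SE), edgeR adjusted p = 0.0148). *Osmr*, the oncostatin M receptor, had a log2 fold change of 2.15 (adjusted p = 0.0106), and *Vim*, the vimentin gene, one of 2.29 (adjusted p = 0.0205). Of the 12, 11, 11, 6 and 9 lay above the highest control in mice A to D, and 3 lay below the lowest in C. Of 11 astrocyte genes linked to ischaemia 8 were called higher and the others not called (median 2.27). In mice A to D 10, 11, 6 and 3 of the 11 lay above the highest control and 0, 0, 3 and 2 below the lowest. The share above in D, 27.3%, was under the 33.1% of all genes. *Ptx3*, a pentraxin, read 43.5, 19.6, 0.447 and 0.55 CPM on day 13 and 0.186 to 0.364 CPM in the controls, and *Emp1*, a membrane protein gene, 48.6, 28.7, 3.83 and 3.25 CPM against 1.4 to 2.22 CPM. Of 11 astrocyte genes linked to inflammation 5 were higher and 1, *Iigp1*, was lower (median 0.46). The largest of these rises were *Fbln5* (1.03, adjusted p = 0.0302) and *Ggta1* (0.92, adjusted p = 0.0447), and *C3*, the complement gene often used as the marker of that state, was not called (0.67, edgeR adjusted p = 0.413), and was at 1.54 (edgeR adjusted p = 0.0522) without control B and 0.39 without control A.

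The astrocyte results rested on few mice. For the pan-reactive list the number called higher was 5 without control A or B, 4 without control C or D and 6 without day 13 mouse A or B. For the ischaemia list the number called higher was 3 without control A or D, 4 without control B or day 13 mouse A, 2 without control C and 5 without day 13 mouse B. For the inflammation list the number called higher was 1 without control A or D or day 13 mouse B, 3 without control B or day 13 mouse A and 2 without control C. The log2 fold change was 1.26 for *Vim* and 0.51 for *Ggta1* without day 13 mouse B. With day 13 mice A and B left out, 4, 2 and 1 genes of these lists were called higher. With the replicate letter as a block the pan-reactive list gave 5 calls. With *Xist* as a covariate the pan-reactive, ischaemia and inflammation lists gave 4, 1 and 2 calls higher. On thinned counts they gave 9, 8 and 5. The call for *Cd44* was lost when control D was left out, where its adjusted p rose to 0.0501. The call for *Vim* was lost when any of the 4 controls was left out, where its adjusted p rose to 0.0614. The call for *Ptx3* was lost when control C was left out, where its adjusted p rose to 0.0503. The call for *Iigp1* was lost when control A was left out, where its adjusted p rose to 0.0514. The call for *Fbln5* was lost when control A or B or D or day 13 mouse B was left out, where its adjusted p rose to 0.0832. The call for *Ggta1* was lost when any of the 4 controls or day 13 mouse A or B was left out, where its adjusted p rose to 0.113.

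Genes of resting astrocytes were mostly not called. 1 of 22, *Gja1*, was called lower and the others not called (median -0.24), and 19, 18, 9 and 11 of the 22 lay below the lowest control in mice A to D. In C and D these were 40.9% and 50% of the list, against 34.8% and 34.5% of all genes. *Gja1* codes for connexin 43, the gap junction protein. *Gja1* was 182, 172, 179 and 167 CPM in the controls and 48.1, 59.8, 117 and 143 CPM on day 13 (log2 fold change -0.93 ± 0.30 (SE), edgeR adjusted p = 0.0446). *Slc4a4*, the sodium bicarbonate cotransporter, read 99.8, 117, 238 and 249 CPM against 298 to 312 CPM and was not called (-0.80, edgeR adjusted p = 0.0523). Both genes were lowest in mice A and B. *Aqp4*, the water channel of astrocyte endfeet, had a log2 fold change of 0.00 (edgeR adjusted p = 0.995) and *Slc1a2*, the main glutamate transporter, one of -0.19 (edgeR adjusted p = 0.264). For *Aqp4* this mean covered opposite directions, with 185 and 209.7 CPM in A and B and 131 and 134 CPM in C and D around controls of 164 to 166 CPM. The number called lower was 0 without any of the 4 controls or day 13 mouse A or B, 5 without day 13 mouse C and 3 without day 13 mouse D. *Slc4a4* (-0.95, adjusted p = 0.0309) passed the test without day 13 mouse C. *Slc4a4* (-1.01, adjusted p = 0.0191) passed the test without day 13 mouse D. The call for *Gja1* was lost when any of the 4 controls or day 13 mouse A or B was left out, where its adjusted p rose to 0.0988.

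Microglial genes changed in part. 7 of 20 activated microglia genes were higher and 1, *Apoe*, was lower (median 0.48), whereas of 14 homeostatic microglia genes 0 were higher and 1, *P2ry13*, was lower (median -0.06). *Gpnmb*, a transmembrane glycoprotein gene of lysosome-rich cells, was the largest rise. *Gpnmb* was 5.42, 6.43, 6.54 and 5.64 CPM in the controls and 48.6, 102, 54.6 and 55.4 CPM on day 13 (log2 fold change 3.44 ± 0.24 (SE), edgeR adjusted p = 1.16e-04). All day 13 mice were far above all controls, and mice C and D read slightly more than A, unlike for the astrocyte genes. *Spp1*, the osteopontin gene, read 21.7, 27.8, 3.74 and 1.83 CPM against 1.44 to 2.88 CPM (log2 fold change 2.83 ± 0.75 (SE), edgeR adjusted p = 0.0223), and *Cd68*, a lysosomal marker of phagocytes, 6.81, 5.78, 4.02 and 3.35 CPM against 2.65 to 3.8 CPM (log2 fold change 0.72 ± 0.23 (SE), edgeR adjusted p = 0.0448). *Apoe*, which astrocytes also express, fell from 621, 676, 693 and 716 CPM to 288, 239.9, 514 and 557 CPM (log2 fold change -0.76 ± 0.24 (SE), edgeR adjusted p = 0.0435). The pan-microglial markers *Aif1* (IBA1) and *P2ry12* were not called, at 0.04 and -0.39 (edgeR adjusted p = 0.864 and 0.299). Of 12 complement genes 5 were higher and the others not called (median 0.70), among them *C1qa*, *C1qb* and *C1qc*, the subunits of C1q, at 0.72, 1.05 and 0.97, and *C4b* at 0.91. *C1qb* read 26.9, 38.8, 16.6 and 17.9 CPM against 10.9 to 13.7 CPM. For activated microglia genes the number called higher was 3 without control A or C or day 13 mouse B and 2 without control B or D. For homeostatic microglia genes the number called lower was 0 without control A or D or day 13 mouse B and 2 without day 13 mouse C. The log2 fold change was 0.42 for *C1qa* without day 13 mouse B. For complement genes the number called higher was 2 without control A or C or D, 3 without control B or day 13 mouse A or B and 8 without day 13 mouse C. The call for *Spp1* was lost when control A or B or D or day 13 mouse A or B was left out, where its adjusted p rose to 0.0688. The calls for *Cd68*, *Apoe* and *C1qa* were lost when any of the 4 controls or day 13 mouse A or B was left out, where adjusted p rose as high as 0.118. The call for *P2ry13* was lost when control A or D or day 13 mouse B was left out, where the size of the change fell under the fold minimum. The call for *C4b* was lost when control A or C or D was left out, where its adjusted p rose to 0.0709.

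Cytokine and matrix genes were higher in part, and no interferon-stimulated gene of the list was called. 9 of 20 cytokine, chemokine and receptor genes were higher and the others not called (median 0.54). In mice A to D 70%, 65%, 65% and 40% of the 20 lay above the highest control, against 33.1% to 35.6% of all genes. *Lif*, a cytokine of the interleukin 6 family, read 89.8, 29.8, 2.65 and 0.35 CPM on day 13 and 0.465 to 0.544 CPM in the controls (log2 fold change 5.93 ± 1.39 (SE), edgeR adjusted p = 0.0132), with mouse D below all controls. *Ccl12*, a monocyte chemokine gene, read 5.47, 2.42, 0.475 and 0.25 CPM against 0.0727 to 0.231 CPM (log2 fold change 4.19 ± 0.95 (SE), edgeR adjusted p = 0.0118). Its lowest count was 4, so it passed the count filter through the day 13 mice, where it was high. On thinned counts it did not pass the filter. *Tnf*, *Ccl2* and *Cxcl1* were below the count filter, and *Il6* was not called (0.45, edgeR adjusted p = 0.535). The call counts for interferon-stimulated genes were 0 of 20 by edgeR, 4 at an unadjusted p under 0.05 and 2 by DESeq2 (median -0.05). *Ifi202b*, an interferon-activated gene by name and not on that list, was called higher (log2 fold change 6.50 ± 1.56 (SE), edgeR adjusted p = 0.0148). It read 67.9, 24.4, 0.475 and 0.45 CPM on day 13 against 0.132 to 0.379 CPM, so the rise lay mainly in mice A and B. Of 26 extracellular matrix and adhesion genes 11 were higher and the others not called (median 0.63). These included the basement membrane collagens *Col4a1* (1.19, adjusted p = 0.00309) and *Col4a2* (0.82, adjusted p = 0.00295), the fibrillar collagen *Col3a1* (2.05, adjusted p = 0.00221), the lysyl oxidase *Lox* (2.12, adjusted p = 0.00478) and the perineuronal net proteoglycans *Acan* (1.18, adjusted p = 8.69e-04) and *Ncan* (1.00, adjusted p = 0.00101). *Ncan* read 634, 667, 494 and 452 CPM against 266 to 306 CPM, without overlap. *Col3a1* overlaps *Gm47302* on its own strand. *Tnc*, the tenascin C gene, moved in opposite directions, with 95.2, 113, 6.98 and 8.43 CPM on day 13 against 13.9 to 16.3 CPM, and was not called (edgeR adjusted p = 0.104). For cytokine genes the number called higher was 5 without control A, 4 without control B or C or day 13 mouse A and 3 without control D. *Tnc* (2.26, adjusted p = 0.0282) passed the test without day 13 mouse C. *Tnc* (2.23, adjusted p = 0.0336) passed the test without day 13 mouse D. With day 13 mice A and B left out, 2 cytokine genes and 6 matrix genes were called higher. These numbers were 2 and 7 with *Xist* as a covariate, 6 and 10 on thinned counts and 1 and 6 in the mice with high *Xist* alone.

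Cell cycle genes were higher more often than lower, with 10 of 24 higher and 2 lower (median 0.50). *Ccnb1*, the mitotic cyclin, read 1.72, 2.55, 1.59 and 1.28 CPM against 0.691, 0.626, 0.418 and 0.227 CPM (log2 fold change 1.87 ± 0.34 (SE), edgeR adjusted p = 0.00454), and *Top2a*, the replication topoisomerase, 3.33, 11, 4.75 and 4.28 CPM against 2.51, 3.2, 1.98 and 2.38 CPM (log2 fold change 1.22 ± 0.35 (SE), edgeR adjusted p = 0.0305). The replication genes *Mcm6* and *Tyms* fell, at -0.90 and -0.59 (adjusted p = 0.00219 and 0.0324). *Mki67*, the usual marker of cycling cells, was not called (0.17, edgeR adjusted p = 0.479). Members of the list thus moved both ways. The number called higher was 3 without control A or day 13 mouse B, 6 without control B and 4 without control C or D. The number called lower was 1 without any of the 4 controls or day 13 mouse A or C. The log2 fold change was 0.71 for *Top2a* without day 13 mouse B. The call for *Top2a* was lost when control A or C or D was left out, where its adjusted p rose to 0.0874. The call for *Tyms* was lost when any of the 4 controls or day 13 mouse A or C was left out, where its adjusted p rose to 0.0848.

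**Figure D3:**
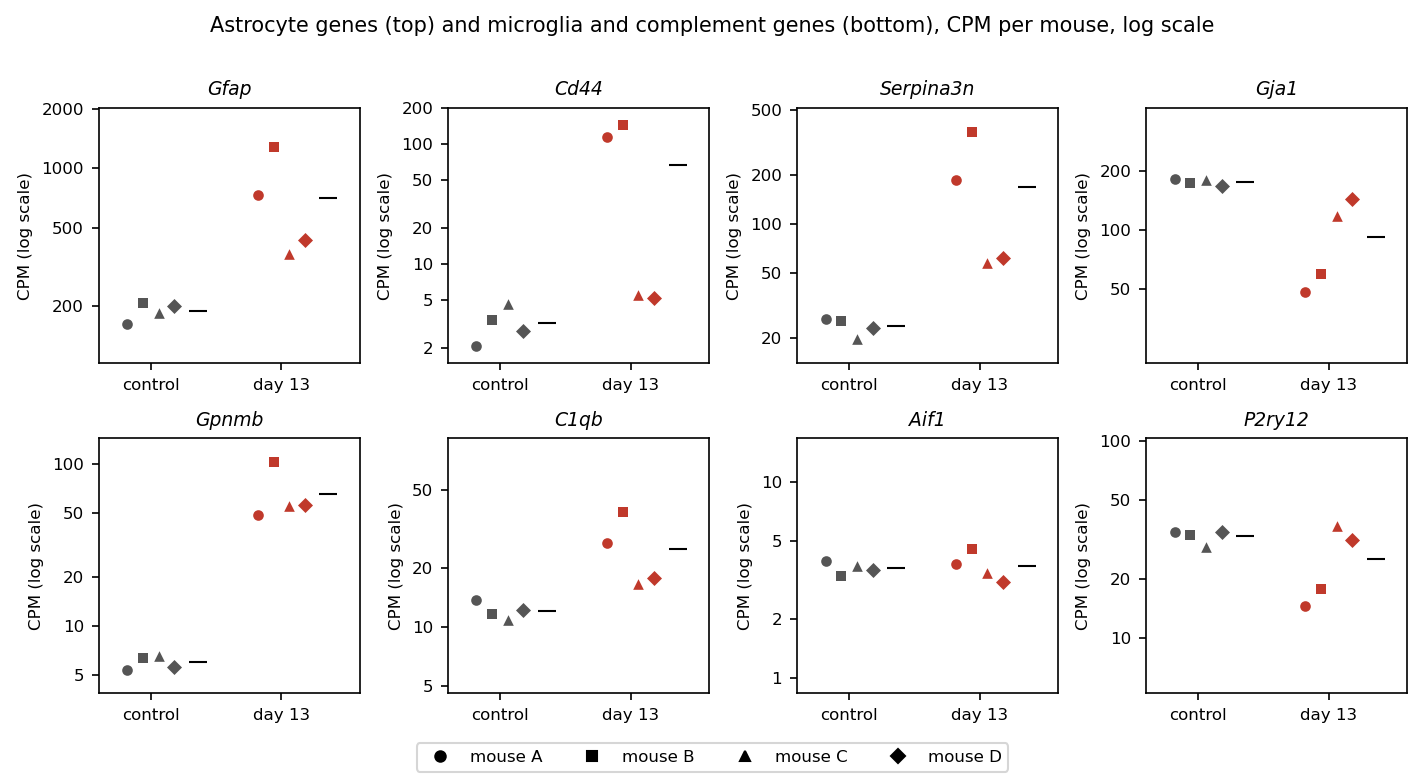
CPM on a log axis for *Gfap*, *Cd44*, *Serpina3n*, *Gja1*, *Gpnmb*, *C1qb*, *Aif1* and *P2ry12* in control and day 13 mice, with a point per mouse and a dash at the group mean. *Gfap*, *Cd44* and *Serpina3n* show mice A and B far above C and D, *Gpnmb* shows all day 13 mice together above the controls, and *Aif1* overlaps between the groups.

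Amino acid response genes rose, and nearly all of them lay above the controls in each day 13 mouse. 21 of 23 were called higher and the others not called (median 1.68), and 21, 22, 20 and 20 lay above the highest control in mice A to D, against 33.1% to 35.6% of all genes. *Slc7a3* (ENSMUSG00000031297, chrX:101079210-101086020, minus strand) codes for a cationic amino acid transporter. *Slc7a3* was 2.62, 2.85, 3.6 and 2.54 CPM in the controls and 46, 89.1, 41.5 and 60.5 CPM on day 13 (log2 fold change 4.35 ± 0.26 (SE), edgeR adjusted p = 6.56e-05). *Asns*, the asparagine synthetase whose promoter window is shown above, read 56.6, 54.4, 55.5 and 54.3 CPM and 216, 329.8, 193 and 237 CPM (log2 fold change 2.14 ± 0.15 (SE), edgeR adjusted p = 1.22e-04). *Atf4*, the transcription factor of this response, read 51, 47.1, 54.7 and 52.6 CPM and 224, 263, 147 and 164 CPM (log2 fold change 1.96 ± 0.17 (SE), edgeR adjusted p = 2.56e-04). For these genes the lowest day 13 mouse was well above the highest control, and mouse B was the highest. *Chac1*, a glutathione-degrading enzyme, *Ddit3*, the transcription factor CHOP, and *Sesn2*, a leucine sensor, had log2 fold changes of 4.09, 2.45 and 2.52 (adjusted p = 2.31e-04, 2.56e-04 and 1.25e-04). The transporters *Slc7a5*, *Slc7a1* and *Slc1a4* were at 1.70, 1.68 and 1.40 (adjusted p = 7.27e-05, 1.58e-04 and 3.89e-04). *Trib3*, a pseudokinase of the same response, was at 4.76 (adjusted p = 6.62e-04). *Nupr1*, a stress-induced chromatin factor, was high in mice A and B alone, with 8.02, 20.5, 1.34 and 1.4 CPM against 1.32 to 1.59 CPM. *Slc7a11* and *Slc6a9*, transporters of cystine and glycine, were the members not called. The log2 fold change was 1.39 for *Nupr1* without day 13 mouse B. The list kept 17 calls with day 13 mice A and B left out and 16 in the mice with high *Xist* alone. The call for *Nupr1* was lost when any of the 4 controls or day 13 mouse A or B was left out, where its adjusted p rose to 0.118.

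Serine, proline and folate-linked synthesis genes rose with them, 10 of 16 higher and the others not called (median 0.74). *Mthfd2*, a mitochondrial folate enzyme, read 4.33, 4.93, 5.08 and 4.45 CPM in the controls and 37.7, 53.3, 28.5 and 32.4 CPM on day 13 (log2 fold change 3.02 ± 0.19 (SE), edgeR adjusted p = 8.30e-05). Its mean rose from 4.7 ± 0.366 CPM (SD, n = 4) to 38 ± 10.9 CPM (SD, n = 4). *Psph* (2.24, adjusted p = 1.48e-04), the last enzyme of serine synthesis, *Shmt2* (2.23, adjusted p = 8.69e-04), the mitochondrial serine hydroxymethyltransferase, and *Aldh18a1* (1.97, adjusted p = 3.91e-04), of proline synthesis, were also higher. *Phgdh*, which starts serine synthesis, was not called (0.37, edgeR adjusted p = 0.0917). Endoplasmic reticulum folding genes gave fewer calls, 4 of 21 higher and the others not called (median 0.26). *Herpud1*, a degradation factor of that compartment, was at 1.38 (adjusted p = 3.55e-04), whereas the chaperones *Hspa5* and *Hsp90b1* were at 0.47 and -0.07 and were not called. *Hspa5* (0.61, adjusted p = 0.00365) passed the test without day 13 mouse D. *Phgdh* (0.51, adjusted p = 0.017) passed the test without day 13 mouse C.

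Sterol synthesis genes rose, and here mouse B was the lowest of the day 13 mice rather than the highest. 18 of 23 were called higher and the others not called (median 0.96), and the median log2 ratio to the control mean was 1.30, 0.40, 1.10 and 0.90 in mice A to D. *Hmgcs1* (ENSMUSG00000093930, chr13:119690379-119708260, plus strand) codes for HMG-CoA synthase, an early enzyme of the pathway. *Hmgcs1* was 138, 133, 132 and 129 CPM in the controls and 509, 238, 371 and 346 CPM on day 13, or 133 ± 3.71 CPM (SD, n = 4) and 366 ± 112 CPM (SD, n = 4) (log2 fold change 1.46 ± 0.19 (SE), edgeR adjusted p = 0.00109). *Sqle*, the squalene epoxidase, read 44.2, 41.2, 46.6 and 44.5 CPM and 142, 81.7, 124 and 108 CPM (log2 fold change 1.37 ± 0.15 (SE), edgeR adjusted p = 5.71e-04). Mouse B stayed above all controls for both. *Msmo1*, a sterol demethylation enzyme, was at 1.25 (adjusted p = 5.71e-04). None of the 16 sterol genes with a promoter window held an exact match to the letters searched for the sterol regulatory element. Only 0.27% of all genes held such a match, so finding none in 16 windows cannot show a lack of the element. Variant forms of it were not searched. Fatty acid synthesis genes gave 1 higher, *Acly* (0.76, adjusted p = 6.62e-04), the ATP citrate lyase, and 1 lower, *Srebf1* (-0.52, adjusted p = 0.0401), a transcription factor of that pathway, of 13. *Fasn* and *Scd1* were at 0.31 and -0.16 and were not called. The call for *Srebf1* was lost when any of the 4 controls or day 13 mouse A or B was left out, where its adjusted p rose to 0.0979.

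Genes for glycolysis, lactate transport and respiration rose in part. Of 24 glycolysis and lactate genes 10 were higher and the others not called (median 0.46). *Hk2*, the inducible hexokinase, read 4.91, 4.73, 5.38 and 4.6 CPM and 26.5, 19, 12 and 8.3 CPM (log2 fold change 1.75 ± 0.31 (SE), edgeR adjusted p = 0.00398). *Ldha*, which makes lactate, read 134, 127, 120.5 and 121 CPM and 272, 299.9, 176 and 164 CPM (log2 fold change 0.86 ± 0.18 (SE), edgeR adjusted p = 0.00879). *Slc2a1*, the glucose transporter of the blood-brain barrier, and *Slc16a1*, a lactate transporter, were at 0.75 and 0.87 (adjusted p = 0.00286 and 0.0023). *Gapdh*, often used as a reference gene, was at 0.33 and was not called (edgeR adjusted p = 0.0855).

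Nuclear genes of oxidative phosphorylation moved as a narrow band. 32 of 72 were called higher and the others not called (median 0.48). The groups did not overlap for 66 of the 72, all with day 13 above, and 66 of them passed the adjusted p without a fold minimum while 0 passed with a minimum of 1. *Atp5g1*, a subunit of the ATP synthase ring, read 63.6, 68.2, 62.6 and 66.3 CPM and 115, 128, 124 and 123 CPM (log2 fold change 0.91 ± 0.06 (SE), edgeR adjusted p = 1.04e-04), and *Cox5a*, of cytochrome c oxidase, 19.6, 20.1, 22.3 and 21.8 CPM and 32.8, 38.5, 40.7 and 44.7 CPM (log2 fold change 0.90 ± 0.10 (SE), edgeR adjusted p = 6.46e-04). The 4 day 13 mice were close to each other for both genes. Of 11 genes encoded in mitochondrial DNA 1, *mt-Nd6*, was higher and the others not called (median 0.06). *mt-Nd6* lies opposite *mt-Nd5*, so its reads may not be its own, and *mt-Co1* was at 0.18 (edgeR adjusted p = 0.144). Short protein-coding genes were also higher more often in general. In the sixth of protein-coding genes with the shortest exon length 17.3% were called higher and the median was 0.17. For the 49 nuclear oxidative phosphorylation genes in that sixth these were 53.1% and 0.52, and of 77 cytosolic ribosomal protein genes 7 were called higher with a median of 0.25. Among 16 tricarboxylic acid cycle genes 2, *Sucla2* (0.59, adjusted p = 6.64e-04) and *Mdh2* (0.50, adjusted p = 9.51e-04), were higher and the others not called (median 0.38), and the groups did not overlap for 14. For pentose phosphate genes the counts were 0 of 7 by edgeR, 4 at an unadjusted p under 0.05 and 0 by DESeq2 (median 0.20). For the tricarboxylic acid cycle list the number called higher was 1 without control C or day 13 mouse B and 4 without day 13 mouse C. For genes of mitochondrial DNA the number called higher was 2 without day 13 mouse B. The call for *Mdh2* was lost when control C or day 13 mouse B was left out, where the size of the change fell under the fold minimum.

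Lysosome and V-ATPase genes rose in part, 13 of 28 higher and the others not called (median 0.47). *Gla*, the alpha-galactosidase, read 10.8, 10.2, 10.6 and 11.2 CPM and 33.2, 67.7, 29.7 and 25.8 CPM (log2 fold change 1.87 ± 0.27 (SE), edgeR adjusted p = 0.00182). *Ctsl*, a cathepsin, read 46.8, 53.3, 47.6 and 47.2 CPM and 85.4, 136, 79.5 and 93 CPM (log2 fold change 1.02 ± 0.15 (SE), edgeR adjusted p = 0.00213). It overlaps *Gm49230* on its own strand. The proton pump subunits *Atp6v1h* and *Atp6v1b2* were at 0.93 and 0.81 (adjusted p = 0.00105 and 3.26e-04), and *Lamp2*, a membrane protein of lysosomes, at 0.71 (adjusted p = 6.89e-04). *Tfeb*, a regulator of lysosome genes, was not called (0.23), and its relative *Tfe3* was at 0.54 (adjusted p = 0.00258). The call for *Tfe3* was lost when control D was left out, where the size of the change fell under the fold minimum.

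**Figure D4:**
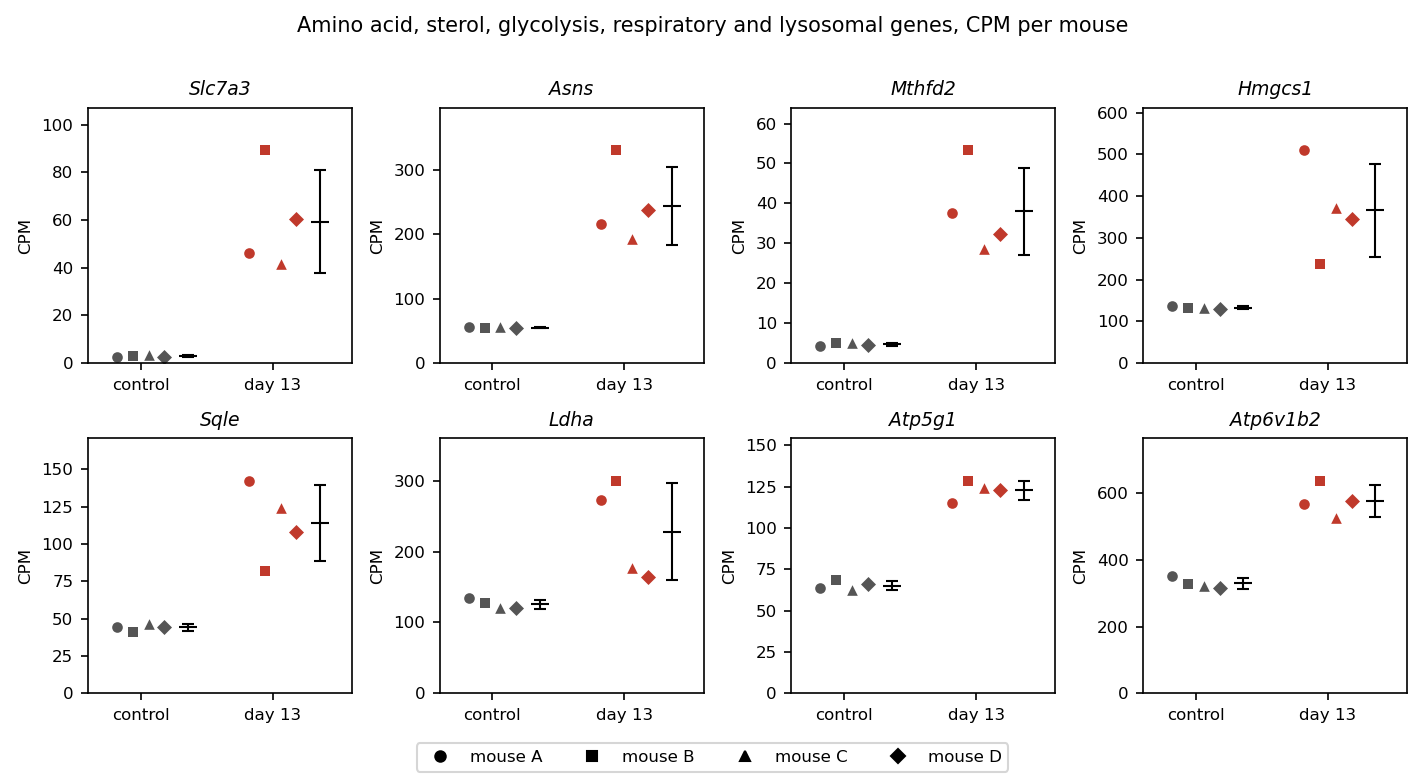
CPM on a linear axis from 0 for *Slc7a3*, *Asns*, *Mthfd2*, *Hmgcs1*, *Sqle*, *Ldha*, *Atp5g1* and *Atp6v1b2* in control and day 13 mice, with a point per mouse, a dash at the group mean and bars of 1 SD (n = 4). All day 13 mice lie above all controls in every panel, mouse B is highest for *Slc7a3*, *Asns* and *Mthfd2* and lowest for *Hmgcs1* and *Sqle*.

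Dentate granule cell genes fell in part. 7 of 22 were called lower and 1, *Neurod2*, was higher (median -0.56), and 17, 19, 17 and 13 lay below the lowest control in mice A to D, against 34.5% to 40.5% of all genes. *Calb1* (ENSMUSG00000028222, chr4:15881264-15908064, plus strand) codes for the calcium buffer calbindin, abundant in mature granule cells. *Calb1* was 82.4, 81.4, 73.2 and 81.6 CPM in the controls and 23.4, 24.5, 48.2 and 44.5 CPM on day 13, or 79.6 ± 4.34 CPM (SD, n = 4) and 35.1 ± 13 CPM (SD, n = 4) (log2 fold change -1.19 ± 0.23 (SE), edgeR adjusted p = 0.00557). *Plk5* (ENSMUSG00000035486, chr10:80356459-80365489, plus strand), a polo-like kinase gene expressed in brain, read 20.9, 23.6, 24.1 and 23.8 CPM and 0.24, 0.171, 2.18 and 1.68 CPM (log2 fold change -4.62 ± 0.68 (SE), edgeR adjusted p = 0.00195). In both genes mice A and B were lower than C and D, and all were below all controls. *Rfx3*, a ciliary gene transcription factor, read 266, 279, 261 and 266 CPM and 119.9, 111, 151 and 154 CPM (log2 fold change -1.0 ± 0.11 (SE), edgeR adjusted p = 5.71e-04). *Sema5b*, a semaphorin, *Dock10*, a guanine nucleotide exchange factor, and *Stxbp6*, a syntaxin binding protein, were at -0.88, -0.76 and -0.58 (adjusted p = 0.0107, 0.0208 and 0.0319).

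Other markers of these cells did not pass the test. *Prox1*, the transcription factor that defines granule cells, read 123, 139, 126 and 138 CPM in the controls and 128, 103, 117 and 109 CPM on day 13 and had a log2 fold change of -0.20 (edgeR adjusted p = 0.0915). *Lct*, a further granule cell marker, read 16, 7.29, 109 and 92.3 CPM on day 13 against 90.2 to 101 CPM, so that A and B were far below the controls and C and D were among or above them. *C1ql2*, a synaptic organizer of mossy fibers, showed the same division, with 18.5, 16.7, 63.6 and 55.8 CPM against 34.4 to 48.8 CPM. *Tdo2*, the tryptophan dioxygenase, read 0.9, 1.36, 4.05 and 5.05 CPM against 6.63 to 7.63 CPM (edgeR adjusted p = 0.0537). *Neurod2*, a transcription factor of excitatory neurons, rose in contrast, from 75.1, 79.4, 74.4 and 77.4 CPM to 139.9, 158, 131 and 141 CPM (log2 fold change 0.89 ± 0.07 (SE), edgeR adjusted p = 1.58e-04). Over the list the median log2 ratio to the control mean was -0.97, -1.17, -0.39 and -0.28 in mice A to D. The number called lower was 11 without day 13 mouse D. *Tdo2* (-1.57, adjusted p = 0.0453) passed the test without day 13 mouse C. *Tdo2* (-1.82, adjusted p = 0.0149) passed the test without day 13 mouse D. With day 13 mice A and B left out 8 of the list were lower. The call for *Dock10* was lost when control B or D or day 13 mouse A was left out, where its adjusted p rose to 0.0592. The call for *Stxbp6* was lost when any of the 4 controls or day 13 mouse A or B was left out, where its adjusted p rose to 0.0795.

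**Figure D5:**
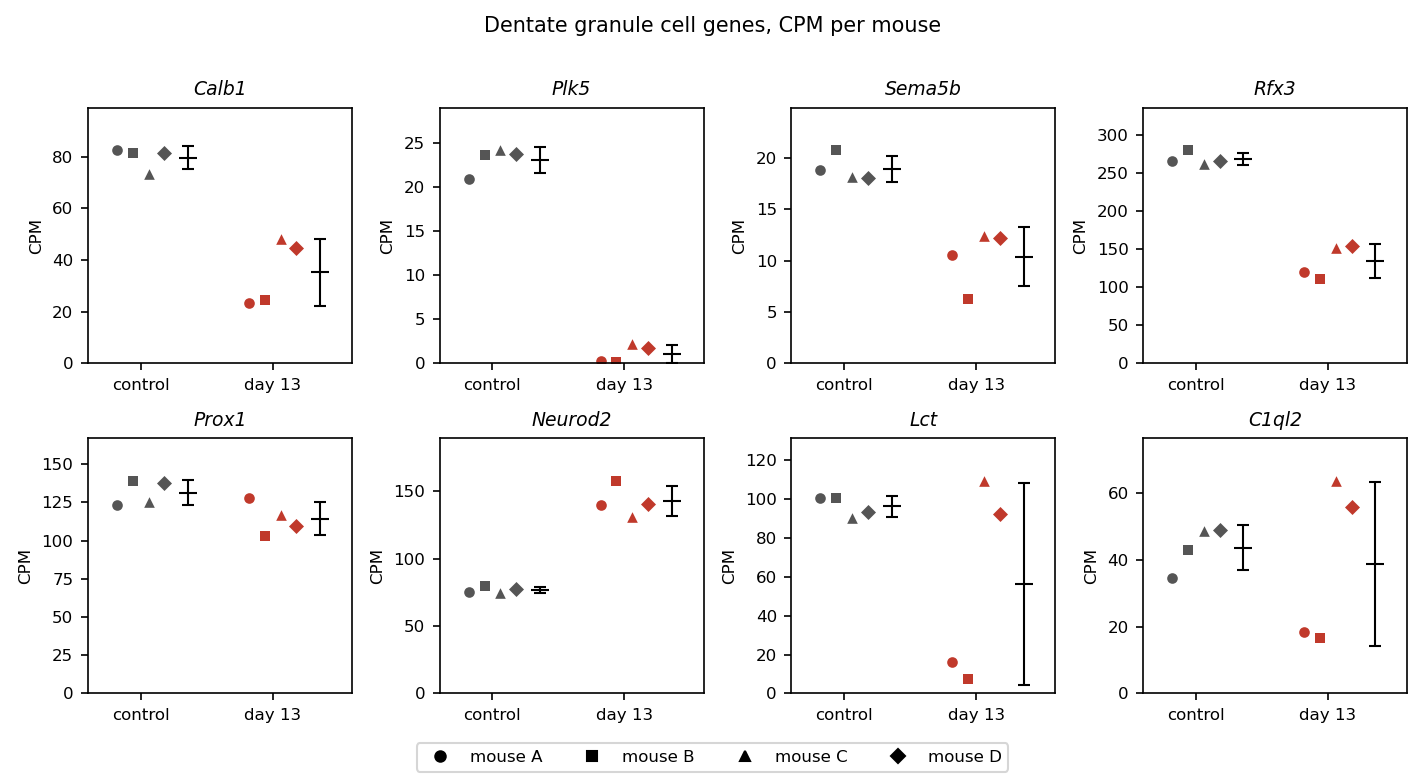
CPM on a linear axis from 0 for *Calb1*, *Plk5*, *Sema5b*, *Rfx3*, *Prox1*, *Neurod2*, *Lct* and *C1ql2* in control and day 13 mice, with a point per mouse, a dash at the group mean and bars of 1 SD (n = 4). *Calb1*, *Plk5*, *Sema5b* and *Rfx3* lie below the controls in every day 13 mouse, *Prox1* overlaps between the groups, *Neurod2* lies above, and for *Lct* and *C1ql2* mice A and B lie below and C and D among or above the controls.

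Immature neuron and neurogenesis genes moved both ways, 3 of 17 higher and 1 lower (median -0.17). These shares were 17.6% and 5.88%, against 8.4% and 8.06% of all genes, so the share lower was under that of all genes. In mice A to D 35.3%, 41.2%, 29.4% and 35.3% of the list lay above the highest control, against 33.1% to 35.6% of all genes. *Sox11*, a factor of young neurons, read 24, 28.5, 32.7 and 28.3 CPM and 154, 129, 56.1 and 39.5 CPM (log2 fold change 1.74 ± 0.38 (SE), edgeR adjusted p = 0.01), while *Dcx*, the doublecortin gene of newborn neurons, had a log2 fold change of 0.00 (edgeR adjusted p = 0.995). *Hes5*, a Notch target of stem cells and astrocytes, read 3.74, 2.49, 2.2 and 3.24 CPM and 0.18, 0.252, 1.62 and 0.9 CPM (log2 fold change -2.11 ± 0.58 (SE), edgeR adjusted p = 0.0254). It overlaps *Gm20421* on the other strand. General neuron genes were higher or not called, 5 of 14 higher and the others not called (median 0.37). The neurofilaments *Nefh*, *Nefm* and *Nefl* were at 1.13, 0.88 and 0.67, the neuronal tubulin *Tubb3* at 1.00 and the vesicular glutamate transporter *Slc17a7* at 0.73 (adjusted p = 0.00297, 0.00155, 6.12e-04, 0.00353 and 5.08e-04). *Rbfox3* (NeuN) was at -0.10 and was not called. Of 20 interneuron genes 1 was higher, *Npy*, and 3 were lower, among them *Nos1* (-0.88, adjusted p = 0.00112) and *Erbb4* (-0.71, adjusted p = 0.00803), which code for neuronal nitric oxide synthase and the neuregulin receptor. *Gad1* was at 0.29 (edgeR adjusted p = 0.0772). *Nos1* overlaps *Gm26995* on the other strand. For neurogenesis genes the number called lower was 0 without control A or D or day 13 mouse B and 3 without day 13 mouse D. The call for *Hes5* was lost when control A or D or day 13 mouse B was left out, where its adjusted p rose to 0.0678.

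Pyramidal cell genes changed in few cases. Calls in the CA1 list numbered 0 of 9 by edgeR, 2 at an unadjusted p under 0.05 and 2 by DESeq2, with *Wfs1*, the wolframin gene, at 0.28. In CA2 2 of 9 were higher, *Rgs14* (0.67, adjusted p = 0.00355) and *Stard5* (0.91, adjusted p = 0.0161), and 1 was lower, *Ntf3*, the neurotrophin 3 gene, which read 6.27, 5.21, 5.61 and 5.34 CPM and 1.57, 1.2, 1.96 and 1.58 CPM (log2 fold change -1.84 ± 0.17 (SE), edgeR adjusted p = 2.91e-04). The CA3 list held 1 higher, *Homer3* (0.92, adjusted p = 4.83e-04), a postsynaptic scaffold gene, and 1 lower, *Cdh24* (-1.13, adjusted p = 0.00289), a cadherin, of 8. *Ntf3* and *Cdh24* were lower in all day 13 mice than in all controls. For CA3 the number called higher was 2 without day 13 mouse C. For CA2 the number called higher was 1 without control D. The call for *Stard5* was lost when control D was left out, where its adjusted p rose to 0.0521.

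Other cell types gave few calls. Calls of myelin genes numbered 0 of 15 by edgeR, 2 at an unadjusted p under 0.05 and 1 by DESeq2 (median -0.25). For oligodendrocyte precursor genes they were 0 of 10 by edgeR, 0 at an unadjusted p under 0.05 and 0 by DESeq2, for pericyte and smooth muscle genes 0 of 9 by edgeR, 3 at an unadjusted p under 0.05 and 0 by DESeq2, and for choroid plexus genes 0 of 12 by edgeR, 0 at an unadjusted p under 0.05 and 0 by DESeq2. *Mbp*, the myelin basic protein gene, was at -0.18, *Pdgfra*, of precursors, at -0.09 and *Ttr*, of choroid plexus, at -1.15. None of these was called, and without control B the direction of *Ttr* turned, to 2.62 (edgeR adjusted p = 0.0668). The choroid plexus sum read 346, 219, 50.8 and 459 CPM in day 13 mice A to D. Of 12 endothelial genes 3 were higher, with *Mfsd2a* (1.12, adjusted p = 5.85e-04), the lipid transporter of the blood-brain barrier, the largest rise, and the tight junction gene *Cldn5* was at 0.38 and not called. In the mossy cell list 1 of 6 was called, *Ociad2* (1.05, adjusted p = 6.46e-04), and in the ependymal list 1 of 6, *Foxj1* (0.71, adjusted p = 0.0201), a ciliogenesis factor, both higher. Leukocyte genes stayed low, summing to 14.7 to 18.1 CPM in the controls and 16.6 to 24.2 CPM on day 13. Of 6 that passed the count filter 1 was higher, *Cd163* (0.99, adjusted p = 0.0205), a macrophage scavenger receptor, and *Ptprc* (CD45) was at 0.45. The T cell and B cell markers *Cd3e* and *Ms4a1* were below the filter. All 5 red blood cell genes were lower (median -0.85), *Hba-a1* reading 4.67, 5.16, 6.66 and 6.09 CPM and 2.97, 2.34, 4.22 and 2.4 CPM (log2 fold change -0.93 ± 0.21 (SE), edgeR adjusted p = 0.0113), and the globin genes are near-identical copies whose reads may be shared. In the cortex and thalamus list 1 of 9 was called, *Prkcd* (-1.72, adjusted p = 0.0111), which was lower and is the gene raised in control D, and at -1.13 without that mouse. For the cortex and thalamus list the number called lower was 3 without control B. For leukocyte genes the number called higher was 0 without control A or B or day 13 mouse A and 2 without day 13 mouse D. *Ptprc* (0.59, adjusted p = 0.0436) passed the test without day 13 mouse D. For endothelial genes the number called higher was 1 without day 13 mouse B. For red blood cell genes the number called lower was 3 without control C. The call for *Foxj1* was lost when control A or C or D was left out, where its adjusted p rose to 0.0633. The call for *Cd163* was lost when control A or B or day 13 mouse A was left out, where its adjusted p rose to 0.0615.

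The day 13 mice were also compared with *Tsc1-Cre+* mice given rapamycin and taken on the same day, so that genotype and time did not differ and treatment did. Sex and batch were not labelled here either. Total counts were 28208561 to 54924199 in the rapamycin group and 38423852 to 126435936 on day 13. The low *Xist* and deep libraries of day 13 mice A and B enter this comparison too. The paper recalls earlier work in which rapamycin from day 4, at a lower dose, prevented seizures. Treatment and seizure state therefore cannot be told apart here. Of 24274 genes tested 11.2% were higher in the untreated mice, 9.94% lower and 21.1% changed in either direction. Among protein-coding genes alone these were 15.5% higher and 5.66% lower. The 2 comparisons share the day 13 mice, so their values are set side by side only. Higher in untreated than in rapamycin-treated mice were 20 of 29 immediate early genes, 19 of 26 delayed activity genes, 9 of 12 pan-reactive astrocyte genes, 17 of 22 amino acid response genes and 21 of 23 sterol genes. By log2 fold change against rapamycin these included *Fos* (3.96, adjusted p = 0.00987), *Gfap* (2.70, adjusted p = 8.37e-04), *Slc7a3* (4.41, adjusted p = 9.63e-05) and *Hmgcs1* (2.00, adjusted p = 2.84e-04). *Calb1* and *Plk5* were lower in the untreated mice, at -1.43 and -4.06 (adjusted p = 0.00181 and 0.00242), and of 22 granule cell genes 10 were lower and 1 was higher. Some genes that were not called against the controls were called against rapamycin. *Aif1* and *Aqp4* were higher in the untreated mice by 0.73 and 0.73 (edgeR adjusted p = 0.0103 and 0.00591), the vascular receptor *Kdr* by 1.53 and the microglial gene *Itgax* by 2.59. Whether these differences exceed those against the controls was not tested.

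Against *Tsc1-Cre+* mice taken on day 8 edgeR called 0 of 24747 genes, or 0%, in either direction, although 3479 genes (14.1%) had an unadjusted p under 0.05, and DESeq2 called 238. Log2 fold changes from day 8 to day 13 were 3.52 for *Fos*, 2.16 for *Nptx2*, 0.63 for *Gfap*, 3.38 for *Ptx3*, 0.71 for *Slc7a3*, 0.47 for *Hmgcs1* and -0.80 for *Calb1*. List medians were 1.5 for immediate early, 0.82 for delayed activity, 1.32 for pan-reactive astrocyte, 0.40 for amino acid response, 0.16 for sterol and -0.33 for granule cell genes. Of the immediate early genes 23 of 29 were higher at an unadjusted p under 0.05, and of the delayed activity genes 17 of 26. None of these differences passed the adjusted test by edgeR. The count was 57 without day 13 mouse D and 1 without A or B.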

How the data were processed

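RNA from the hippocampus of 24 mice was sequenced by the authors, and 1 table of raw counts per gene was deposited for each mouse. Per the submitters' processing notes the tools were cutadapt 1.16.5, STAR 2.7.2b and featureCounts 1.6.4. The study names GENCODE release 24, and 55144 of 55385 gene identifiers matched release 21, which gave names and GRCm38 positions. The strand setting and the treatment of reads with several matches are not given in the sources used here, so overlapping genes and near-identical copies are uncertain. Groups came from the labels, and the number series of the table names was used for no grouping.

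The deposited counts were analysed in R 4.3.3 with edgeR 4.0.16 (filterByExpr, TMM and quasi-likelihood tests with Benjamini-Hochberg adjustment over all genes tested), in separate fits of 8 mice for each comparison. CPM used the TMM factors. A call needed an adjusted p under 0.05 and a log2 fold change over 0.5 in size. The adjusted p-values in the text are from this test unless another tool is named. With 4 against 4 mice the smallest exact permutation p is 0.0286. For total counts and the mitochondrial share of counts the two-sided exact permutation test gave p = 0.771 and 0.743, which at this size does not show that the groups were alike.

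Members and gene lists were chosen with earlier results of these data known. Genes were named by a rule: *Tsc1*, a fixed set of markers, up to 2 called genes in each direction per main list and 1 per other list with a mean of at least 1 CPM and no overlap between groups, and the 5 largest rises and falls among protein-coding genes. Other genes were named after their values were seen, and some genes that the rule takes are not reported here. On simulated counts of the day 13 against control comparison with 200 genes changed 2-fold, edgeR recovered 68% and called 8 unchanged genes of 24480 tested, and DESeq2 1.42.0 recovered 80.5% and called 51 of 24920. Each gene was drawn independently with the same dispersion in both groups. The simulation thus lacks the split among the day 13 mice and any difference in spread between groups, and gives no error rate for these data. Alternatives were DESeq2, its size factors, no filter, the replicate letter as a block, *Xist* as a covariate, thinned counts, all 24 mice in one fit, other fold minimums and each mouse left out. Fits of the mice with high *Xist* alone and without day 13 mice A and B were added after seeing the data. Promoter windows came from RefSeq. They were also searched for an exact match to a fixed set of letters for the serum response element. This was held by 0 windows of the 3 lists searched and 0.0777% of all windows. A match so rare cannot show a lack of the element in these lists, and variant forms were not searched. Motifs could overlap within a window. Stranded, rRNA-depleted libraries were read as pairs of 76 nucleotides, and no column of the tables was left unused (0 columns).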

Additional observations from a re-analysis of the deposited data

Results flagged for a closer look

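A mouse stood apart from the other 3 of its group by Dixon's test for 21 of the 328 groups of 4 values looked at, where chance gives about 1 in 20. Control A lay above the others of its group for *Col4a1* at 121 CPM (101 to 104 CPM), *Col4a2* at 117 CPM (99.3 to 102 CPM) and *Slc17a7* at 732 CPM (604 to 624 CPM). Control A lay below the others of its group for *Herpud1* at 24.5 CPM (27.1 to 27.4 CPM) and *Srebf1* at 58.4 CPM (69.7 to 71.9 CPM). Control B lay above the others of its group for *Ccl12* at 0.231 CPM (0.0727 to 0.093 CPM), *Ctsl* at 53.3 CPM (46.8 to 47.6 CPM) and *Ttr* at 1483 CPM (18.2 to 39.3 CPM). Control C lay below the others of its group for *Calb1* at 73.2 CPM (81.4 to 82.4 CPM). Control D lay above the others of its group for *Mfsd2a* at 11.8 CPM (10.8 to 10.9 CPM) and *Prkcd* at 86.2 CPM (26.8 to 29.7 CPM). Day 13 mouse A lay above the others of its group for *Acly* at 277 CPM (215 to 223 CPM), *Pdyn* at 20.6 CPM (5.27 to 5.89 CPM) and *Prkcd* at 18.5 CPM (11.1 to 11.5 CPM). Day 13 mouse A lay below the others of its group for *Pdgfra* at 55.7 CPM (70.8 to 73.7 CPM). Day 13 mouse B lay above the others of its group for *Atp6v1h* at 291 CPM (202 to 207 CPM), *Gpnmb* at 102 CPM (48.6 to 55.4 CPM) and *Sesn2* at 89.6 CPM (50.8 to 56.5 CPM). It also did so for *Slc1a4* at 152 CPM (100.1 to 107 CPM). Day 13 mouse C lay above the others of its group for *Btg2* at 131 CPM (12.6 to 30.9 CPM). Day 13 mouse D lay below the others of its group for *Homer1* at 158 CPM (583 to 625 CPM). The ranges in brackets are those of the other 3 mice. *Ttr* belongs to the choroid plexus list and *Prkcd* to the thalamic markers, and the part of neighbouring tissue in these values was not tested.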

How the results depend on the processing

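The 2093 higher and 2008 lower calls numbered 2651 and 2304 with DESeq2, 2234 and 1940 with its size factors, 2156 and 1951 without the count filter, 1556 and 1736 with *Xist* as a covariate, 1941 and 1865 on thinned counts and 2848 and 2941 with all 24 mice in one fit. With the replicate letter as a block they were 1765 and 1781. Same-lettered mice did not deviate together over all genes (correlations -0.0127, 0.0180, 0.0583 and 0.0384 for A to D). This gave no sign that the letters pair the mice, but such a correlation cannot exclude it. With 1 mouse left out, higher calls ranged from 1522 to 2786 and lower calls from 1241 to 2710, with 1332, 1241 and 1291 lower without control A, C and D. With the mice of high *Xist* alone there were 1187 higher and 1001 lower, and 1779 of the main calls (43.4%) were shared. Without day 13 mice A and B there were 1267 and 1237, and 2028 (49.5%) were shared. Both fits have fewer mice. A minimum log2 fold change of 1 gave 791 and 668 calls, and no minimum gave 3879 higher and 2817 lower. Against rapamycin, the 5123 calls became 1807 with a minimum of 1 and ranged from 3608 to 6025 with 1 mouse left out. Against day 8, the 0 calls of edgeR became 238 with DESeq2 and ranged from 0 to 57 with 1 mouse left out. *Ifi202b* was not among the genes followed through these fits. Of the 118 called genes in the text that were, 90 stayed called with any mouse left out, 118 with DESeq2 and 110 with the block. The number was 103 with the *Xist* covariate, 89 with high *Xist* alone and 97 without day 13 mice A and B. The log2 fold change of *Nupr1* turned from 2.50 to -0.04 with high *Xist* alone and -0.0335 without day 13 mice A and B. The log2 fold change of *Tnc* turned from 1.87 to -0.995 with high *Xist* alone and -0.9952 without day 13 mice A and B. That of *Ttr*, not called in any of these fits, turned from -1.15 to 2.62 without control B and 0.66 with the block. The cause was not tested. The lowest day 13 library, of 38423852 counts, limits what could be seen of genes near the count filter.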
